A study of Mus musculus with 3 samples.

Results

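Immune checkpoint genes encode surface ligands and receptors that restrain or tune T cell responses, and 10 of them, chosen by name, were read out among the 17551 genes of a single-cell table from mouse brains. The ligand side comprised Vsir (VISTA, which acts as a ligand and as a receptor), Cd274 (PD-L1), Pdcd1lg2 (PD-L2), Cd276 (B7-H3) and Lgals9 (the secreted lectin galectin 9). The receptor side comprised Pdcd1 (PD-1), Havcr2 (TIM-3), Lag3, Ctla4 and Tnfrsf4 (OX40, which is co-stimulatory). All 10 genes were in the table, and their levels were followed across the authors' clusters, across 4 brains and across counts of antibody tags.

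The experiment was CITE-seq, in which antibodies carrying DNA barcodes allow surface proteins and mRNA to be counted in the same cell. Its 3 libraries (cDNA, antibody tags and hashtags) came from 1 pool of cells of 4 brains from female C57BL/6 mice aged 2 to 3 months. The series set brains colonised by E0771 cells (a carcinoma line of the mouse mammary gland, given through the carotid artery about 2 weeks earlier) against naive brains. The sources used here do not say which hashtag marked which condition, so each brain is named by its hashtag and no metastatic brain was compared with a naive one. No transgene is given for the mice, the tumors came from a single cell line, and all brains were perfused, digested with papain and put through Percoll.

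VISTA is known above all from myeloid cells, microglia included, where it restrains T cells. PD-L1 and PD-L2 bind PD-1 and are induced by interferons, galectin 9 binds TIM-3, and CTLA-4 competes with CD28 for CD80 and CD86. LAG-3 binds MHC class II and is best known from activated T cells, and OX40 and CTLA-4 are abundant on regulatory T cells.

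The antibody barcodes are shown because the tag counts, not the RNA, formed the groups that were tested. They are given as read 5′ to 3′, with no part in capitals:
CD45: tggctatggagcaga
CD3e: taatgccagttgtgc
CD86: ctggatttgtgtatc
CD25: accatgagacacagt

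Promoter windows, 250 bases before to 50 bases after a start site, were taken from RefSeq (GRCm38.p6, the mm10 assembly) and matched 9 of the 10 genes, all but Lag3. Lgals9 and Cd274 are shown because, of the 7 members compared, their levels across clusters were the most like those of interferon-induced genes, and Vsir because it differed most between CD45 tag-high and tag-low cells. Capitals mark matches to the core of the interferon-stimulated response element (GAAA-NN-GAAA), of the gamma-activated site (TTC-NNN-GAA) or of the NF-kB site (GGG-NN-TT-N-CC), each searched on both strands, with N for any base. The windows lie at chr11:78984875-78985174 (minus strand) for Lgals9, chr19:29367188-29367487 (plus strand) for Cd274 and chr10:60346601-60346900 (plus strand) for Vsir:
Lgals9: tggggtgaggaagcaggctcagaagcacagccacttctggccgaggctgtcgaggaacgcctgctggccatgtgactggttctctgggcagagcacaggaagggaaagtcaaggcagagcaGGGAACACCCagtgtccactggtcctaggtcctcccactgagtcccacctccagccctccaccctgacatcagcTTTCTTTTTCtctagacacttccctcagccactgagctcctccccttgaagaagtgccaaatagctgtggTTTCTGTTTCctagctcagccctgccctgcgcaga
Cd274: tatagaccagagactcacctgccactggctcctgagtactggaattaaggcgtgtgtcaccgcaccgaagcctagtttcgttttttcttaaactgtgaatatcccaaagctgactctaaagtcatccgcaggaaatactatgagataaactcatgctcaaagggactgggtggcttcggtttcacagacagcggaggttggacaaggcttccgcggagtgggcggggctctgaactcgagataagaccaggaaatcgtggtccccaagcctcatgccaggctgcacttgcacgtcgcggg
Vsir: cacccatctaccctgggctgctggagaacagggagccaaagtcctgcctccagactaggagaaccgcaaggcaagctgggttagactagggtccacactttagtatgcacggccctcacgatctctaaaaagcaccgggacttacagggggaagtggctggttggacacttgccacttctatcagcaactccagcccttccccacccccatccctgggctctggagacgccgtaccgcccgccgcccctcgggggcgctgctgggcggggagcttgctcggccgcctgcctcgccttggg

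The Lgals9 window held 2 matches to the interferon element, first bases at -55 and 15 counted from the start site, and 1 match to the NF-kB core at -129, all 3 as the reverse complement. None of the other 8 windows held either core, and the gamma-activated core was in none of the 9. Of 32851 mouse promoter windows of this length, 3.44% held the interferon element, 4.79% the NF-kB core and 8.30% the gamma-activated core. The core of PU.1 (GAGGAA, not in capitals), a myeloid transcription factor, was in 5 of the 9 windows and in 28.3% of all windows, and it was in neither the Vsir nor the Cd274 window. No matches of different motifs overlapped, and a match describes the letters only.

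In the same annotation Vsir spans chr10:60346851-60430294 and Lgals9 chr11:78962979-78984924. The genes of both PD-1 ligands lie close together, Cd274 at chr19:29362107-29388095 and Pdcd1lg2 at chr19:29410919-29472927, and the Cd274 window above lies inside the gene's span. Cd276 spans chr9:58524300-58555033. Among the receptors, Pdcd1 spans chr1:94038305-94052553, Ctla4 chr1:60909025-60915832, Havcr2 chr11:46454931-46481255, Lag3 chr6:124904359-124912434 and Tnfrsf4 chr4:156013595-156016613.

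The table held 4668 cells with 2495 to 43038 UMIs each, a UMI being 1 counted mRNA molecule. The brains with hashtags 1 to 4 gave 844, 410, 1385 and 2029 cells at median depths of 4370.5, 5599.5, 12450 and 12806 UMIs. Cells of deposited clusters 3 and 6, where most immune marker lists had their highest sums, numbered 192, 43, 181 and 211. In the median cell, 78.4%, 74.1%, 89.0% and 94.2% of hashtag counts came from the brain's own hashtag, so brains 1 and 2 were separated less cleanly. Unless a summed level is named, a level is the mean over cells of UMIs per 10000 UMIs of the cell. Intervals and limits cover counting error only.

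Checkpoint genes were sparse. Lgals9 had 1842 UMIs in 1306 cells and Vsir 1179 UMIs in 902 cells, followed by Lag3 with 291, Cd276 with 253, Cd274 with 176, Tnfrsf4 with 165 and Havcr2 with 115 UMIs. Ctla4 had 47 UMIs in all, Pdcd1lg2 22 and Pdcd1 18, so their levels in single clusters rest on a few molecules. Clusters 3 and 6 make up 627 of the 4668 cells and held 61.1% of the Pdcd1 UMIs, 59.6% of those of Ctla4, 59.1% of those of Pdcd1lg2 and 40.3% of those of Vsir. They held 15.7% of the Lgals9 UMIs and 2.37% of those of Cd276. Cells of clusters 3 and 6 were shallow, with a median of 3753 UMIs against 9472 over all cells. Their share of all UMIs was thus below their share of cells, and the UMI shares are not read against the cell share.

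Among the ligands, Vsir was highest in cluster 3 and next in cluster 6. In cluster 3, which had the highest microglia and border macrophage marker sums, its level was 2.73, 3.84, 2.05 and 1.89 in the brains with hashtags 1 to 4. In cluster 6, which had the highest neutrophil and granulocyte precursor marker sums, it was 1.08 and 1.04 in the 2 brains with at least 20 cells there (hashtags 1 and 3), below every brain of cluster 3. In the other 9 clusters no brain with at least 20 cells was above 0.607. With each cell thinned to 2495 UMIs, 41.1% of cluster 3 cells and 23.3% of cluster 6 cells had a Vsir UMI, against 3.30% of the choroid plexus cells of cluster 1, which should lack it. Unthinned, the shares were 55.7%, 32.7% and 8.41% at median depths of 3815, 3715 and 7282.5 UMIs. The clusters were made from the same RNA, so levels by cluster are a description with no test.

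Lgals9 was spread over more cell types. In cluster 3 it was 1.23, 1.45, 1.03 and 1.49 in the brains with hashtags 1 to 4. In cluster 4, which had the highest endothelial marker sum, it was 0.974, 1.07, 1.003 and 1.10, overlapping cluster 3. Cluster 6 followed at 0.876 and 0.808 in the brains with hashtags 1 and 3, below all brains of cluster 4. Clusters 0, 2 and 7, which had the highest carcinoma marker sums, had 0.342 over all their cells, and the choroid plexus cells of cluster 1 had the lowest median over brains, 0.102. Vsir in the endothelial cluster was 0.195, 0.404, 0.183 and 0.210.

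Cd274 was highest in cluster 3 and uneven between brains, at 0.114, 0, 0.283 and 0.530 in the brains with hashtags 1 to 4, from 1, 0, 23 and 42 UMIs. The count of 0 in the hashtag 2 brain allows a summed level of up to 0.216, and ranges overlap with those of the next clusters. Pdcd1lg2 had 12 of its 22 UMIs in cluster 3, of which 4 came from the hashtag 3 brain and 8 from the hashtag 4 brain. Cd276 differed from the other ligands, with its highest medians over brains in cluster 5 (0.0803), cluster 9 (0.0623, the highest mural marker sum) and cluster 2 (0.0510), all with overlapping ranges. These clusters held 9, 9 and 77 Cd276 UMIs. Clusters 0, 2 and 7, which had the highest carcinoma marker sums, held 195 of its 253 UMIs. Their level was 0.0559, against 0.0430 over all cells. Cd276 had 0 UMIs in the 223 cells of cluster 6, which allows a summed level of up to 0.0319, and 6 UMIs in the 404 cells of cluster 3.

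Among the receptors, Lag3 was highest in cluster 3, where it was 0.772, 0.695, 0.695 and 0.512 in the brains with hashtags 1 to 4. Cluster 6 had 0.152 and 0.195 in hashtag 1 and hashtag 3 brains. No other cluster and brain with at least 20 cells reached the lowest value of cluster 3. With thinning, 12.4% of cluster 3 cells had a Lag3 UMI, against 1.14% of choroid plexus cells (unthinned 20.8% and 4.55%). Havcr2 was also highest in cluster 3, at 0.193, 0.0311, 0.422 and 0.346, and its lowest brain there lay within the range of cluster 9. Tnfrsf4 in cluster 3 was 0, 0.0731, 0.254 and 0.462 and Ctla4 0.146, 0, 0.0938 and 0.0861. In cluster 6 the pair was uneven between the brains with hashtags 1 and 3, with Tnfrsf4 at 0.0459 and 0.890 and Ctla4 at 0.00870 and 0.707. Pdcd1 had 9 UMIs in cluster 3 and 2 in cluster 6.

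**Figure D1:**
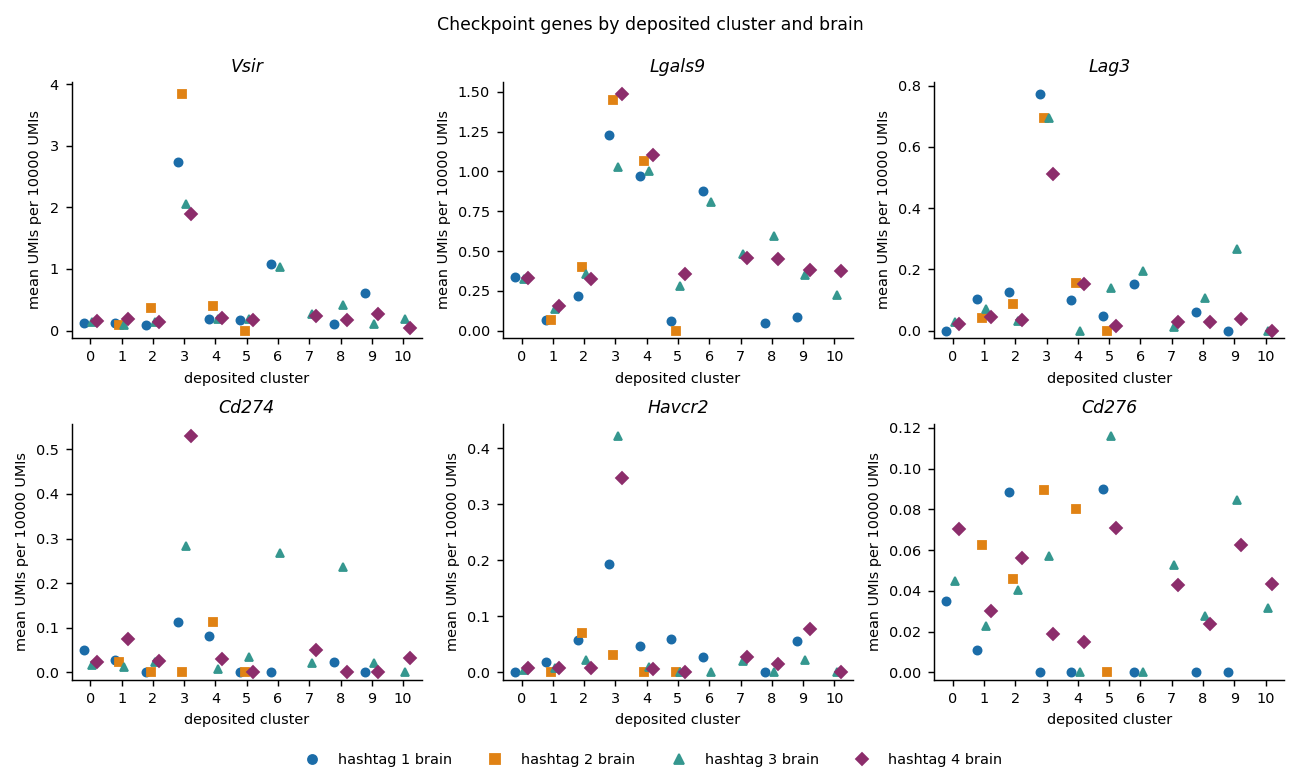
Levels of checkpoint genes (mean UMIs per 10000 UMIs) in each deposited cluster, with 1 point for each brain with at least 20 cells. Vsir and Lag3 stand highest in cluster 3 in all 4 brains, while Lgals9 reaches about the same level in cluster 4, where its brains range from 0.974 to 1.10.

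The 627 cells of clusters 3 and 6 were clustered again on 106 marker genes, none of them a checkpoint member, to see which immune cells carried the signal. Classes named from their markers were neutrophil-like (109 cells), marrow-derived-like (79), T cell-like (77), granulocyte precursor-like (58), microglia-like (50), B cell-like (21), NK cell-like (16) and erythroid-like (8). A group of 55 cells whose leading genes were Ly6i, Lag3, Hspa1a and Il1a, with none of the markers among its top 10 genes, is called Il1a-led, and 4 more groups stayed unnamed. The Il1a-led group matched the microglia list best, with 3 markers. Its microglia marker sum was 34.7, against 79.4 in microglia-like cells. The microglia-like group was led by the antibody gene Igkc beside 7 microglia markers among its top 10 genes, and its median CD3e tag count was 13.5, against 40 in T cell-like cells. The brains contributed unequally: marrow-derived-like cells numbered 4, 0, 43 and 32 and T cell-like cells 4, 5, 30 and 38 in the brains with hashtags 1 to 4.

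Vsir was highest in microglia-like cells, at 5.42, 4.52, 2.18 and 3.26 in the brains with hashtags 1 to 4, from 7, 19, 8 and 16 cells. Over all cells the level was 3.87 in microglia-like, 2.66 in Il1a-led, 1.79 in T cell-like and 1.77 in neutrophil-like cells. Marrow-derived-like cells had 1.33 and granulocyte precursor-like cells 0.715. VISTA mRNA was counted in classes named as lymphoid as well as in myeloid ones. T cell-like cells also carried myeloid signal, with a median CD11b tag count of 3108. Their marrow-derived marker sum was 39.2, against 43.8 over clusters 3 and 6. Whether their Vsir UMIs came from T cells was not tested. The microglia-like level was 2.87 at a coarser clustering that placed 149 cells in the class.

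Lag3 was highest in Il1a-led cells, at 2.17 and 1.13 in the brains with hashtags 3 and 4. Microglia-like cells had 1.66, 0.670, 0.472 and 1.54 in the brains with hashtags 1 to 4, overlapping the Il1a-led values. A Lag3 UMI was found in 40% of Il1a-led cells, 34% of microglia-like cells and 18.2% of T cell-like cells, and after thinning in 30.9%, 20% and 10.4%. Of the 100 cells of clusters 3 and 6 with a Lag3 UMI, 14 were T cell-like, where 77 of all 627 cells were T cell-like. Havcr2, whose product is known from T cells and myeloid cells, was at 0.440 and 0.83 in Il1a-led cells of the brains with hashtags 3 and 4, from 12 UMIs in all. Groups led by Pf4 (0.371) and Gpnmb (0.347) and B cell-like cells (0.314, 3 UMIs) followed, marrow-derived-like cells had 0.292 and T cell-like cells 0.261. At the coarser clustering no Il1a-led class was found. The 149 microglia-like cells there had 0.998 for Lag3 and 0.367 for Havcr2.

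Cd274 was highest in marrow-derived-like cells, at 0.459 and 1.16 in the brains with hashtags 3 and 4 (25 UMIs in all). A UMI was found in 20.3% of these cells and in 8% of microglia-like cells, whose level was 0.178. At the coarser clustering the microglia-like level was 0.269 (18 UMIs in 149 cells), and no marrow-derived-like class was found. Neutrophil-like cells had 0 Cd274 UMIs in the 80 cells of the hashtag 1 brain. Lgals9 ranged from 0.590 in a group led by choroid plexus genes such as Ttr to 1.67 in Il1a-led and B cell-like cells, with no class near 0. Pdcd1lg2 had 5 UMIs in T cell-like cells and 1 in marrow-derived-like cells.

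Tnfrsf4 and Ctla4 were concentrated in T cell-like cells. Tnfrsf4 was at 1.46 and 3.21 there in hashtag 3 and hashtag 4 brains, and it was the leading gene of the class although it was not used to form it. Its 57 UMIs came from 18 cells, 36 of them from 5 cells and 14 from 1 cell. At the coarser clustering the class held 91 cells and was led by Gzma. Tnfrsf4 was not among its top 10 genes there, at a level of 1.83. Ctla4 was at 0.822 and 0.787 in the same brains, from 20 UMIs in 12 cells, and had 0 UMIs in the 79 marrow-derived-like and 55 Il1a-led cells. Both genes were counted in 9 cells, and all 3 cells with a UMI of Foxp3, the transcription factor of regulatory T cells, had both. Of the 18 cells with Tnfrsf4, 5 had a UMI of Cd8b1 and 3 of Cd8a, markers of cytotoxic T cells, and 2 of Cd4. Of the 12 cells with Ctla4, 3 had Cd8b1, 1 had Cd8a and 2 had Cd4. Which T cells carried the 2 genes was not tested. Pdcd1 had 6 UMIs in 4 T cell-like cells.

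**Figure D2:**
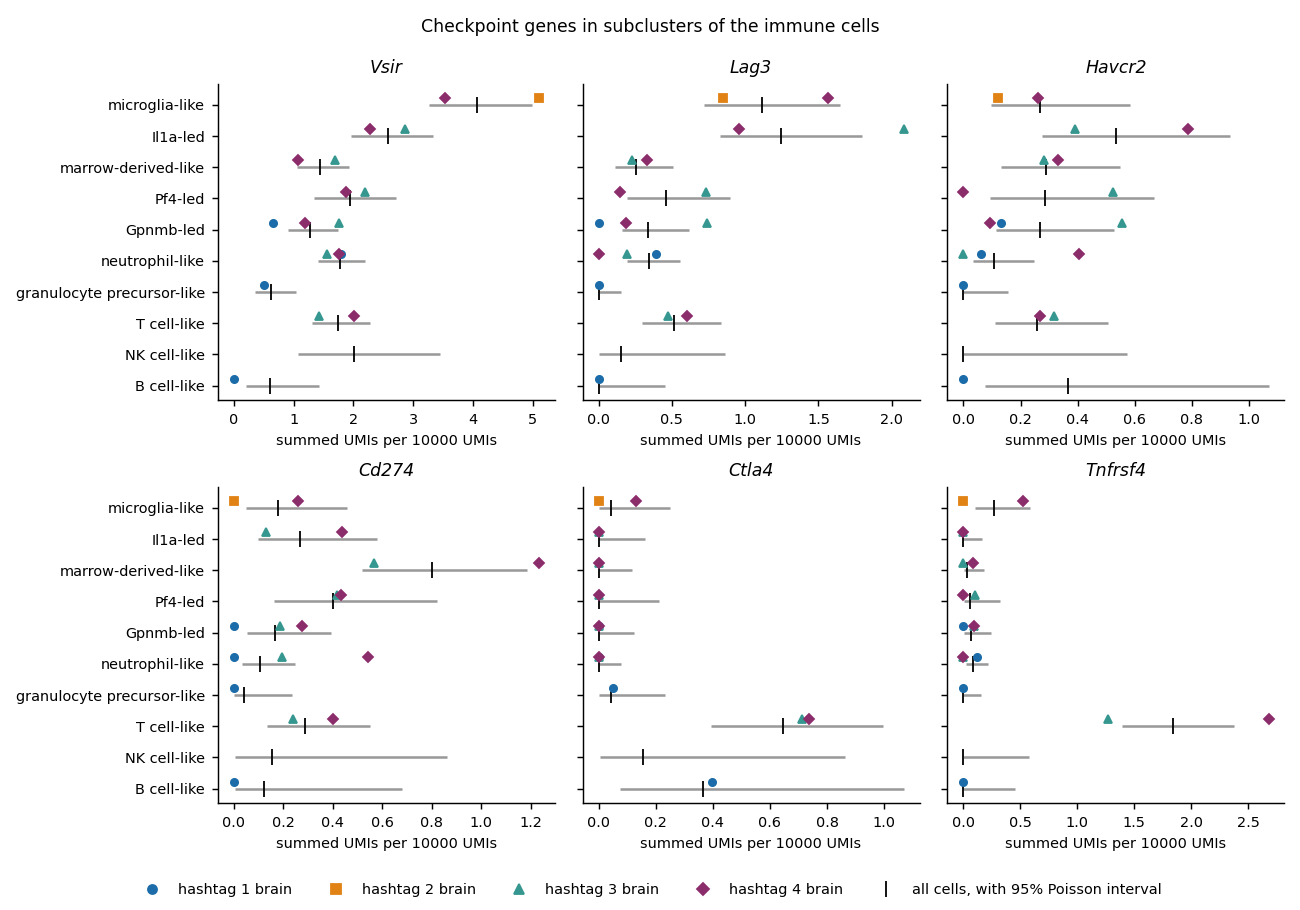
Summed levels of checkpoint genes (UMIs per 10000 UMIs) in groups of immune cells, with points for brains with at least 10 cells and the 95% Poisson interval over all cells. Tnfrsf4 and Ctla4 stand out in T cell-like cells, Vsir in microglia-like cells and Cd274 in marrow-derived-like cells.

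To test the members apart from the clusters, cells were split by the CD45 tag, the surface protein of leukocytes, into tag-high (count of at least 300) and tag-low cells of the same brain. Vsir rose most among the members, and Lag3, Lgals9 and Tnfrsf4 also rose in tag-high cells. Limma called these 4 and Ctla4 among the 9 members with at least 20 UMIs, and 7.99% of all 14111 genes tested, higher. Ctla4 is not counted as support, since it reached 20 UMIs only through tag-high cells. Pdcd1, with 18 UMIs, was not tested. Tag-high cells numbered 230, 75, 255 and 351 and tag-low cells 614, 335, 1130 and 1678 in the brains with hashtags 1 to 4. Of the tag-high cells, 74.8%, 57.3%, 70.6% and 60.1% lay in clusters 3 and 6. Median depths were 3876, 3502, 4206 and 4471 UMIs in tag-high cells, against 4670.5, 5924, 13823 and 13705.5 in tag-low cells. Differences are on the scale of log2(level + 0.1), which understates the change of low genes. In per-brain means such as these, more cells of a type and more RNA per cell cannot be told apart.

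Among the ligands, Vsir was 1.19, 2.24, 1.55 and 1.295 in tag-high cells, against 0.117, 0.104, 0.122 and 0.142 in tag-low cells, a log2 difference of 2.88 (SE 0.21, adjusted p = 0.000199). Lgals9 was 0.760, 1.02, 0.957 and 1.01 in tag-high cells, against 0.215, 0.220, 0.328 and 0.361 in tag-low cells, a log2 difference of 1.46 (SE 0.17, adjusted p = 0.00170). Both genes were higher in tag-high cells in 4 of 4 brains. Cd274 was 0.0184, 0, 0.230 and 0.347 in tag-high cells, against 0.0270, 0.0416, 0.0179 and 0.0212 in tag-low cells, a log2 difference of 0.69 (SE 0.39, adjusted p = 0.289). It was higher in the brains with hashtags 3 and 4 and lower in the other two. Pdcd1lg2 had a log2 difference of 0.43 (SE 0.14, adjusted p = 0.0899), from 17 UMIs in tag-high and 5 in tag-low cells. It was tested only through tag-high cells, and the adjusted p was 0.0399 with edgeR, 0.0176 with DESeq2 and 0.0398 in limma without the hashtag 1 brain. Cd276 had -0.085 (SE 0.15, adjusted p = 0.761) on the same scale.

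Among the receptors, Lag3 was 0.231, 0.465, 0.491 and 0.330 in tag-high cells, against 0.0658, 0.0425, 0.0366 and 0.0296 in tag-low cells, a log2 difference of 1.71 (SE 0.23, adjusted p = 0.00332). Tnfrsf4 was 0.0341, 0.116, 0.318 and 0.435 in tag-high cells, against 0.0124, 0.0225, 0.0227 and 0.0118 in tag-low cells, a log2 difference of 1.28 (SE 0.32, adjusted p = 0.0452). Both were higher in 4 of 4 brains. The Tnfrsf4 call was lost without the hashtag 2 brain (adjusted p = 0.0874) or the hashtag 3 brain (0.0940), and without the brain as a block (0.0595). Ctla4 was 0.0340, 0.0417, 0.129 and 0.109 in tag-high cells, against 0.00673, 0.00399, 0.00172 and 0.00274 in tag-low cells, a log2 difference of 0.74 (SE 0.16, adjusted p = 0.0283). It had 34 UMIs in tag-high cells, against 13 in tag-low cells, and its call was lost without the hashtag 2 brain (adjusted p = 0.0527) or the hashtag 3 brain (0.0736). Havcr2 was 0.0495, 0.0141, 0.253 and 0.222 in tag-high cells, against 0.0226, 0.00504, 0.0120 and 0.00788 in tag-low cells, a log2 difference of 0.91 (SE 0.28, adjusted p = 0.0885). It did not pass in limma, while edgeR on the recovered counts gave an adjusted p of 0.00324 and DESeq2 5.16e-05.

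**Figure D3:**
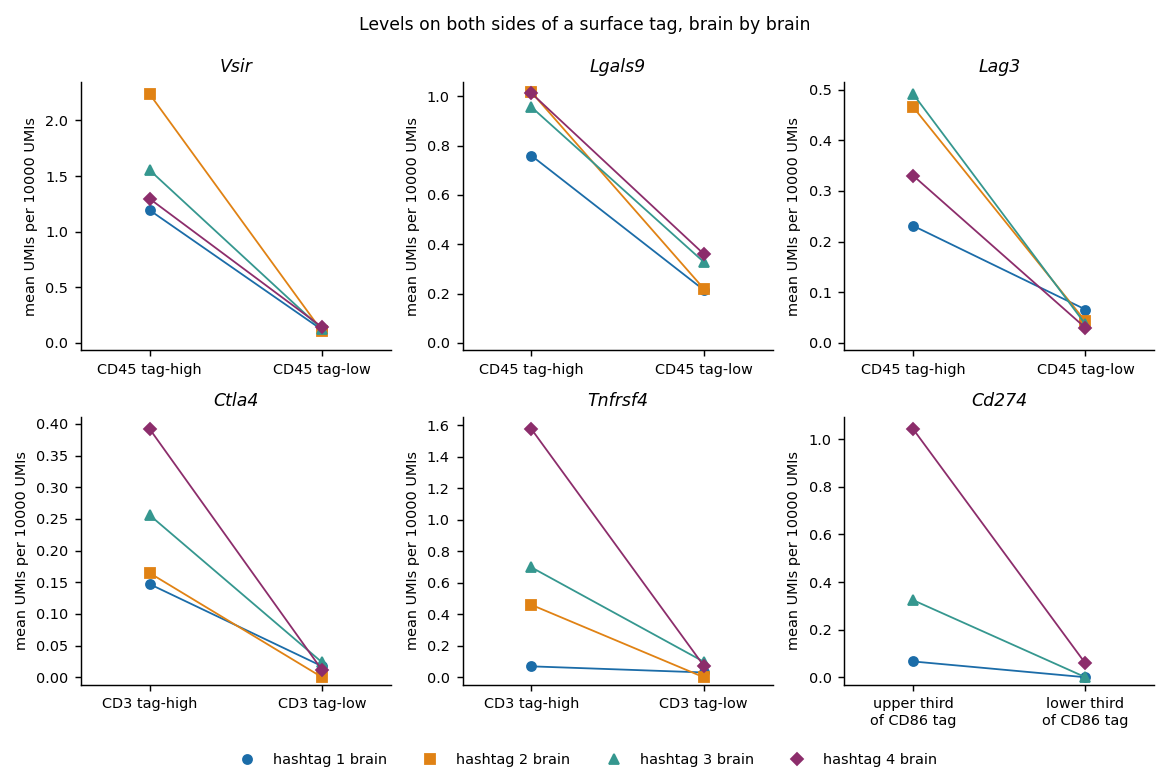
Levels of 6 checkpoint genes (mean UMIs per 10000 UMIs) in CD45, CD3 or CD86 tag-high cells, left, and tag-low cells, right, with lines joining the 2 values of a brain. For the CD45 tag, Vsir, Lgals9 and Lag3 are higher in tag-high cells of all 4 brains, and for the CD3 tag Tnfrsf4 spans 0.0691 to 1.58 in tag-high cells.

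Of 50 listed co-stimulatory and inhibitory genes, 43 were in the table, 33 could be tested and 17 were called higher in CD45 tag-high cells, with none lower, where 7.99% of all genes were called higher. Of the 17, 12 had at least 20 UMIs in tag-low cells. The other 5, Icos among them, were tested only through tag-high cells and are not counted as support. Btla, Il10 and Siglecg, tested but not called, also had fewer than 20 UMIs in tag-low cells. The median log2 difference of the list was 1.01, against -0.043 over all genes. It includes the genes tested only through tag-high cells, so it is given as a description. The widest were Selplg (PSGL-1, a binding partner of VISTA) at 3.93, the co-stimulatory ligand Cd86 at 2.45 and the CD47 receptor Sirpa at 2.40. Pilra (2.00), H2-T23 (1.91), Cd24a (1.78), Tnfrsf18 (1.52), Siglece (1.498), Tgfb1 (1.36) and Icos (1.305) followed. Of 14 interferon-induced or interferon-signalling genes 5 rose, beside the same 7.99% of all genes, among them Cxcl10 at 1.78 and Irf7 at 1.68. All of these were given an adjusted p under 0.05 by limma.

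The CD3 tag marks T cells, and CD45 tag-high cells were split into those with a CD3e tag count of at least 20 and those under 10. Tnfrsf4 and Ctla4 had more UMIs in CD3 tag-high than in tag-low cells, and limma called both, 2 of the 7 members tested, where it called 0.394% of 10393 genes higher. Both reached 20 UMIs only through tag-high cells, so their calls are given as a description and not read against that share. The cells numbered 31, 19, 77 and 85 in the tag-high groups and 188, 47, 158 and 236 in the tag-low groups of the brains with hashtags 1 to 4. Tag-high cells were not pure T cells: 62 of the 212 were in the T cell-like class and 47 lay outside clusters 3 and 6. By brain, 77.4%, 84.2%, 76.6% and 77.6% of tag-high cells lay in clusters 3 and 6, against 73.9%, 46.8%, 67.1% and 52.5% of tag-low cells. Median CD45 tag counts were 7588, 7928, 7984 and 8400 in tag-high cells, against 1730.5, 2462, 4364.5 and 3644.5 in tag-low cells. Summed T cell markers were 6.28, 12.5, 7.74 and 11.3 in tag-high cells, against 0.435, 1.36, 1.52 and 0.473 in tag-low cells. Summed microglia markers were 14.5, 50.4, 14.99 and 17.4 in tag-high cells, against 12.7, 30.7, 12.6 and 11.5 in tag-low cells. All 10 markers of both lists had a UMI on both sides. The part of cell makeup in the results of this comparison was not tested.

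Tnfrsf4 was 0.0691, 0.460, 0.698 and 1.58 in CD3 tag-high cells, against 0.0303, 0, 0.0985 and 0.0730 in tag-low cells, a log2 difference of 2.04 (SE 0.39, adjusted p = 0.0159). Ctla4 was 0.147, 0.164, 0.256 and 0.392 in tag-high cells, against 0.0173, 0, 0.0235 and 0.0113 in tag-low cells, a log2 difference of 1.54 (SE 0.31, adjusted p = 0.0252). Both were higher in 4 of 4 brains, and the groups overlapped for Tnfrsf4. Tnfrsf4 had 71 UMIs in tag-high cells, against 19 in tag-low cells, and Ctla4 24 against 4. The Tnfrsf4 call was lost without the hashtag 3 brain (adjusted p = 0.0620) or the hashtag 4 brain (0.288), and without the brain as a block (0.388). The Ctla4 call was lost without the hashtag 1 brain (0.0722) or the hashtag 3 brain (0.112) and without the block (0.0523), and without the hashtag 4 brain the gene had too few UMIs to be tested.

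None of the other receptors passed in the CD3 comparison. Lag3 was 0.321, 0.612, 0.414 and 0.641 in tag-high cells, against 0.230, 0.392, 0.507 and 0.244 in tag-low cells, a log2 difference of 0.44 (SE 0.28, adjusted p = 0.660). Havcr2 had a log2 difference of 0.0057 (SE 0.31, adjusted p = 0.998), and Pdcd1, untested, had 11 UMIs in tag-high and 3 in tag-low cells. Among the ligands, Vsir was 0.913, 3.82, 1.60 and 1.89 in tag-high cells, against 1.24, 1.75, 1.55 and 0.987 in tag-low cells, a log2 difference of 0.40 (SE 0.21, adjusted p = 0.597). Lgals9 was 0.978, 1.23, 1.08 and 1.62 in tag-high cells, against 0.741, 0.901, 0.842 and 0.831 in tag-low cells, a log2 difference of 0.49 (SE 0.19, adjusted p = 0.465). It was higher in 4 of 4 brains without reaching the threshold. Of the 30 pathway genes tested, limma called 3, each with fewer than 20 UMIs in tag-low cells. These were the co-stimulatory receptors Icos (2.09, 42 UMIs against 5) and Cd28 (2.04, 40 against 8) and the T cell transcription regulator Tox (1.53, 19 against 6).

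**Figure D4:**
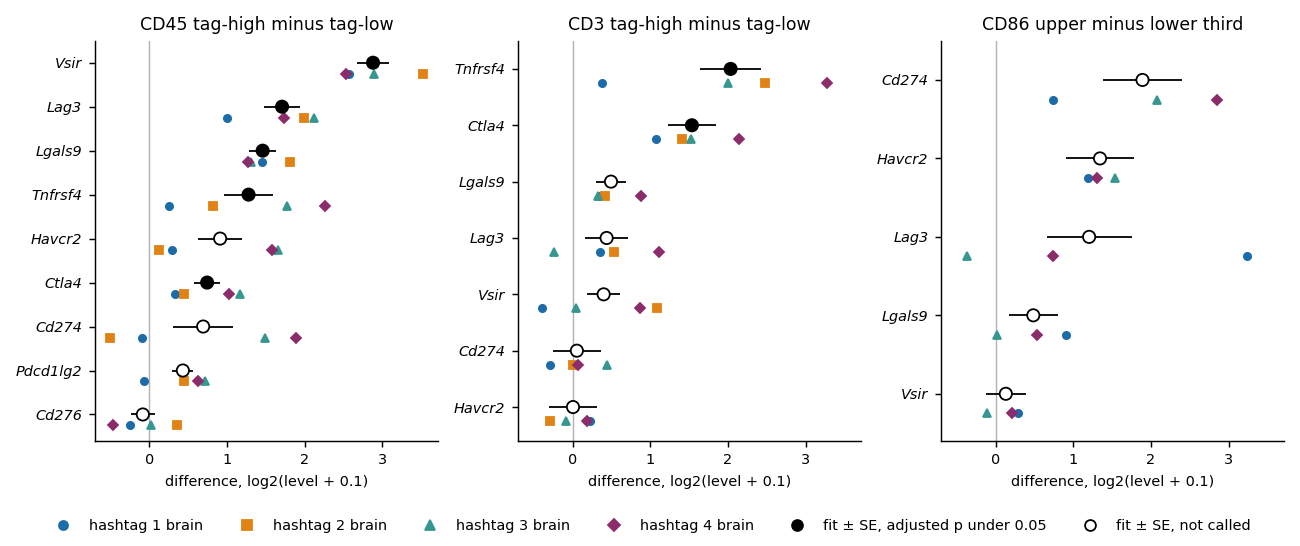
Log2 differences between tag-high and tag-low cells for each member and tag, with points for brains and the fitted value with its SE. Filled points mark an adjusted p under 0.05, which Ctla4 and, for the CD3 tag, Tnfrsf4 could reach only through tag-high cells. Vsir stands at 2.88 for the CD45 tag and at 0.40 for the CD3 tag, while Tnfrsf4 stands at 1.28 and 2.04.

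CD86, a ligand of CTLA-4 and CD28, was used to order myeloid cells (CD45 tag of at least 300, CD11b tag of at least 1000 and CD3e tag under 10), and in each brain the 1 in 3 cells with the most CD86 tag (tag-high) were set against the 1 in 3 with the least (tag-low). Of the 5 members tested none passed, where limma called 0.303% of 6263 genes higher. The unadjusted limma p was under 0.05 for 3 of the 5, Cd274, Havcr2 and Lag3. These had 2, 5 and 14 UMIs in tag-low cells and were tested only or mainly through tag-high cells. Their share is therefore not read against the 9.68% of all genes with such a p. Of the 5 members, edgeR called 1 (Cd274) and DESeq2 0. The hashtag 2 brain, with 9 cells a side, was left out, and the brains with hashtags 1, 3 and 4 gave 36, 41 and 53 cells a side.

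Cd274 was 0.0663, 0.324 and 1.04 in CD86 tag-high cells, against 0, 0 and 0.0577 in CD86 tag-low cells of the brains with hashtags 1, 3 and 4, a log2 difference of 1.89 (SE 0.51, adjusted p = 0.142). It was higher in 3 of 3 brains, with 30 UMIs against 2, and it was tested only through tag-high cells. It was called in 2 of 11 alternatives (without the hashtag 1 brain, adjusted p = 0.0486, and by edgeR, 0.00437), and the adjusted p ranged up to 0.765. Havcr2 was 0.127, 0.544 and 0.411 in CD86 tag-high cells, against 0, 0.122 and 0.106 in CD86 tag-low cells, a log2 difference of 1.34 (SE 0.44, adjusted p = 0.268). Lag3 was 0.841, 0.387 and 0.577 in CD86 tag-high cells, against 0, 0.527 and 0.305 in CD86 tag-low cells, a log2 difference of 1.20 (SE 0.55, adjusted p = 0.498). Both were tested mainly through tag-high cells (17 UMIs against 5 for Havcr2, 31 against 14 for Lag3). The direction of Lag3 was opposite in the hashtag 3 brain. Lag3 was called in 1 of 12 alternatives, without that brain (adjusted p = 0.0136), and the adjusted p ranged up to 0.918. Vsir was 1.94, 1.67 and 1.59 in CD86 tag-high cells, against 1.57, 1.81 and 1.36 in CD86 tag-low cells, a log2 difference of 0.13 (SE 0.26, adjusted p = 0.909).

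CD86 tag-high and tag-low cells also differed in cell makeup. Summed marrow-derived markers were 34.9, 50.3 and 60.4 in CD86 tag-high cells, against 46.7, 27.0 and 14.9 in CD86 tag-low cells of the brains with hashtags 1, 3 and 4. Microglia marker sums were 36.9, 8.98 and 18.3 in CD86 tag-high cells, against 8.60, 17.7 and 13.8 in CD86 tag-low cells. Neutrophil marker sums were 1217, 121 and 41.7 in CD86 tag-high cells, against 2143, 143 and 139 in CD86 tag-low cells. B cell marker sums were 136, 0.514 and 2.37 in CD86 tag-high cells, against 2.86, 1.09 and 1.301 in CD86 tag-low cells. Of the cells, 80.6%, 87.8% and 98.1% of CD86 tag-high cells lay in clusters 3 and 6, against 80.6%, 56.1% and 56.6% of tag-low cells. All 10 marrow-derived, all 10 microglia and all 10 neutrophil markers had a UMI on both sides. The part of this makeup in the values of Cd274, Havcr2 and Lag3 was not tested. Of 18 pathway genes none passed in limma (5 at an unadjusted p under 0.05, edgeR 1, DESeq2 0). Among those 5, Cd40 (26 UMIs in tag-high against 14 in tag-low cells) and Cd86 (56 against 18) were tested mainly through tag-high cells. The share of pathway genes is therefore not read against the 9.68% of all genes. Of 14 interferon genes 1 rose, the antiviral gene Rsad2 at 2.22 (adjusted p = 0.00569), and their median was 1.26, against 0.077 over all genes.

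CD25, a subunit of the interleukin-2 receptor that marks regulatory and activated T cells, was examined after the values above were seen, so it is given with no test. Among the 212 CD3 tag-high cells, the 1 in 4 of each brain with the most CD25 tag (51 tag-high cells, median count 92) was set beside the other 161 (median 10), and levels are summed. Of the 212 cells, 62 were in the T cell-like class. The part of T cell content in the values below was not tested. Tnfrsf4 had 1.94 (95% interval 1.47 to 2.52, 57 UMIs) in CD25 tag-high cells and 0.165 (0.0901 to 0.276, 14 UMIs) in the rest. Ctla4 had 0.477 in CD25 tag-high cells and 0.118 in the rest, and Tnfrsf18 (GITR, another co-stimulatory receptor) 0.988 and 0.282. Lag3 (0.375 and 0.435) and Vsir (1.67 and 1.51) had overlapping intervals. All 3 Foxp3 UMIs lay in CD25 tag-high cells, and all 13 UMIs of Cd8a, a marker of cytotoxic T cells, in the rest. By brain, CD25 tag-high cells had 0, 0, 15 and 42 Tnfrsf4 UMIs and the rest 1, 3, 5 and 5, so the contrast rests on the brains with hashtags 3 and 4.

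**Figure D5:**
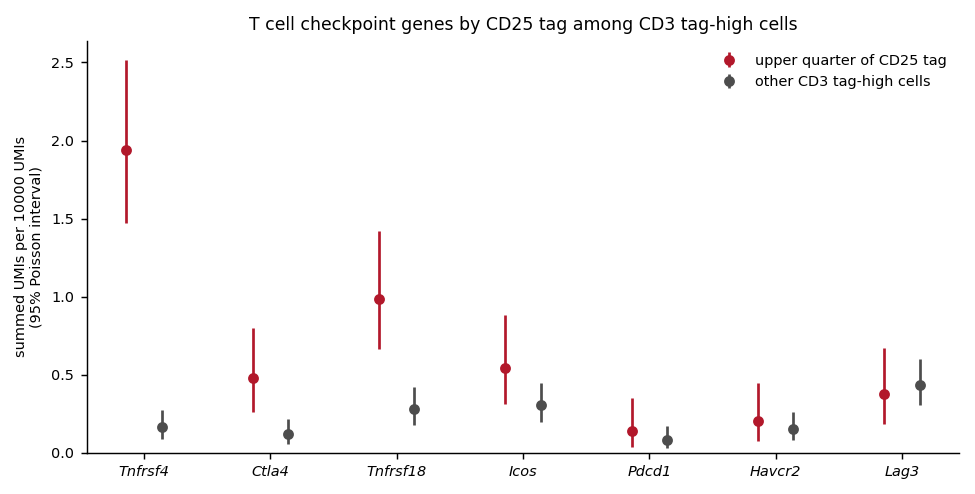
Summed levels (UMIs per 10000 UMIs) in CD3 tag-high cells, for CD25 tag-high cells, left, and the rest, right, with 95% Poisson intervals. Tnfrsf4 stands at 1.94 in CD25 tag-high cells and 0.165 in the rest, while the intervals of Lag3, Havcr2 and Pdcd1 overlap.

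Genes with the most similar pattern were sought over 35 cluster and brain profiles with at least 20 cells, among 11402 genes with at least 100 UMIs, by Pearson's r of log2(level + 0.1). These profiles share the library and the depth differences between cell types, so r is a description. The closest to Vsir were Spi1 (r = 0.94, the gene of PU.1), Laptm5 (0.94), Tnfaip8l2 (0.94), C1qc (0.93) and Unc93b1 (0.93). Lgals9 was closest to Ly6e (0.94), B2m (0.92), Arpc3 (0.90), Klf6 (0.88) and Tpm3 (0.88), and Cd274 to Msr1 (0.81), Irgm1 (0.78), Rtp4 (0.77), Sirpb1b (0.76) and Sirpb1c (0.75). Cd276 was closest to Ywhag (0.78), then Iws1, Bysl, Alg6 and Plekhg3. Among the receptors, Lag3 was closest to Spint1 (0.86), then Acox3, P2ry13, Gpr65 and Ccl3, and Havcr2 to Rab7b (0.83), then Slamf7, Slfn1, Itgax and Pyhin1. Tnfrsf4 was closest to Tnfrsf18 (0.88), then Cacnb3, AB124611, Cst7 and Cd274.

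Against the 14 interferon genes, the median r was 0.67 for Lgals9, whose promoter window above holds the interferon element, and 0.60 for Cd274, whose window does not. Over all genes the medians were 0.088 for Lgals9 and -0.043 for Cd274. The single closest interferon genes were Ifitm3 for Lgals9 (0.84) and Irf7 for Cd274 (0.74). Vsir (0.49), Havcr2 (0.47), Lag3 (0.46) and Tnfrsf4 (0.40) lay lower, and Cd276 was at 0.00.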

How the data were processed

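Cells of 4 hashtagged brains were counted in 1 pool. The deposited gene values are natural log values, which the authors scaled to 10000 per cell, and the deposited total per cell is a UMI count. The mitochondrial share is a deposited fraction and was not tested. Per the submitters' processing notes, Cell Ranger 2.1, Seurat 2.3.4 and mm10 were used; tags were counted with CITE-seq-Count 1.3.4, per the series' design text.

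Counts were recovered by undoing the log: 99.8% of nonzero values were whole within 0.01. Gates compared per-brain mean UMIs per 10000 as log2(level + 0.1) in limma 3.58.1 (R 4.3.3) (trend fitted on mean intensity); brain entered as a block because both sides of a gate are cells of the same animal. Genes with at least 20 UMIs were tested, with Benjamini-Hochberg adjustment over all of them at 0.05. edgeR 4.0.16 and DESeq2 1.42.0 on the recovered counts were alternatives. The fit was tested on simulated data. Immune cells were clustered with scanpy 1.11.5 (15 principal components, 15 neighbours, Leiden resolution 1). Doublets were not called; a repeat limited to cells whose own hashtag gave 80% or more of hashtag counts served as a check. All members were named, with up to 10 called pathway genes per gate and direction and the 5 most similar genes of each member with 100 UMIs. The members, lists and thresholds were chosen with earlier results of these data known.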

Additional observations from a re-analysis of the deposited data

Results flagged for a closer look

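Lgals9 in the CD3 comparison had 1 brain far from the others. The log2 difference between tag-high and tag-low cells was 0.36, 0.41 and 0.33 in the brains with hashtags 1 to 3 and 0.88 in the hashtag 4 brain. Of 16 sets of 4 brains examined, 1 stood apart in this way, and chance sets apart about 1 in 20.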

How the results depend on the processing

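In the CD45 comparison, Vsir, Lag3 and Lgals9 were called in 15 of 15 alternatives, whereas Ctla4 was called in 8 of 14 and Tnfrsf4 in 6 of 14; in the CD3 comparison Tnfrsf4 was called in 8 of 14 and Ctla4 in 6 of 13, with the same sign in all of these; Ctla4 and, for CD3, Tnfrsf4 had fewer than 20 UMIs in tag-low cells. Counts of called genes moved more. For CD45, 1128 genes were higher and 242 lower; higher counts were 711 with genes seen in at least 5% of cells and 653 with cells of at least 80% own hashtag. Lower counts were 81 and 420 with pseudocounts of 1 and 0.01, 98 without the filter, 56 with TMM, 151 with edgeR, 86 with 80% own hashtag, 29 to 561 when 1 brain was left out, and 920 when clusters 3 and 6 were kept only among tag-high cells, an alternative chosen after seeing the data. For CD3, 41 genes were higher and 9 lower. These counts were 23 and 2 with a pseudocount of 0.01, 6 and 0 without the filter, 27 and 5 at 5% of cells, 192 and 108 with edgeR and 16 and 4 with 80% own hashtag. TMM gave 16 lower, DESeq2 3 lower, and leaving out 1 brain 20 to 46 higher and 7 to 14 lower. For CD86, 19 genes were higher and 4 lower. These were 11 and 2 with a pseudocount of 0.01, 67 and 11 without the filter, 54 and 8 with TMM, 119 and 15 with edgeR, 6 and 8 with 80% own hashtag and 1 and 1 when cells were split at the median, and 1 to 102 and 0 to 14 when 1 brain was left out. Without the brain as a block, CD3 gave 21 higher and 1 lower, CD86 0 and 0, and CD45 1071 and 199.

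Differences that changed sign were all uncalled. With 1 brain left out they ranged from -0.23 to 0.042 for Cd276 (CD45 tag), from -0.075 to 0.17 for Cd274 and from -0.067 to 0.11 for Havcr2 (both CD3 tag). For the CD3 tag, Cd274 was -0.24 and Havcr2 -0.25 with a pseudocount of 0.01, Havcr2 -0.054 and -0.28 with tag thresholds of 15 and 30, and Lag3 -0.027 with 80% own hashtag. Vsir for the CD86 tag was -0.24 with 80% own hashtag. The cause of these changes was not tested. Depth limits Pdcd1, Pdcd1lg2 and Ctla4, with 18, 22 and 47 UMIs in all.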
